A study of Mus musculus with 4 samples.

Results

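The Sox9 locus was taken as a stretch of 3 Mb of chromosome 11 (mm9) that holds Sox9 and the gene desert around it, from 1.84 Mb before to 1.16 Mb beyond the start of the gene. Its members were the Meis ChIP-seq summits that fall in this stretch, 69 in forelimbs (FLs) and 47 in hindlimbs (HLs), together 116 of the 40716 summits in both lists. Summits that share a start and an end belong to 1 peak, so the locus held 63 of 21338 FL peaks and 45 of 16987 HL peaks. Membership was set by position and not by any measured value, though the locus was chosen with earlier results of these data known.

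The limb buds came from wild-type C57BL/6 embryos at E10.5 (36 somites), with about 500 FLs and 500 HLs pooled. Chromatin of each limb was precipitated with a mix of 2 antibodies, one of which detects Meis1a, Meis2a and Meis2c and the other all isoforms of Meis1, so Meis1 and Meis2 binding cannot be told apart. One ChIP library and one input library, of 50-bp reads, were made from each limb, and the input served as background when the authors called peaks. There were no replicates. Values below therefore carry no replicate error, FLs were not tested against HLs, and a difference between the limbs describes a pair of libraries. The lists give no read numbers per peak, so the number of reads behind each fold is unknown, though the study reports the total reads of each library.

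Sox9 encodes a transcription factor that is required for the condensation of limb mesenchyme into cartilage and for the cartilage matrix genes that follow. It lies in a gene desert, and regulatory elements spread over long distances on both sides of the gene are known to control it in cartilage, testis and face. Meis1 and Meis2 are homeodomain proteins of the proximal limb bud that bind DNA together with Pbx and Hox proteins. Which positions of the desert carried Meis-binding sites in each limb, and how the FL and HL sites related to each other, is what the lists can show.

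Sox9 started at position 112643537 on the plus strand. Kcnj2, which encodes an inwardly rectifying potassium channel, started at 110927477 on the plus strand, 1.72 Mb before Sox9. Slc39a11, which encodes a zinc transporter, started at 113427081 on the minus strand, 784 kb beyond Sox9. The predicted gene Gm11678 started at 112292949 on the minus strand, 351 kb before Sox9. Distances below run from the Sox9 start to a peak's main summit, "upstream" being the side of Kcnj2 and "downstream" the side of Slc39a11. The start of Kcnj2 lies 1716060 bp before that of Sox9 both in mm9 and in GRCm38, the build of the gene annotation used here. For Slc39a11 the builds differ, with its start 784 kb beyond Sox9 in mm9 and 868 kb beyond it in GRCm38. Whether another transcript or another spacing lies behind this was not tested.

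Meis binding was spread over the desert rather than gathered at the Sox9 start. No peak of either limb lay closer than 22.0 kb to the start of Sox9. The nearest downstream site was the same in both limbs, at 22.0 kb, with a fold enrichment over input of 2.63 in FLs and 2.16 in HLs. It was weak in both, with a q above 0.05 and rank 13213 of 21338 in FLs and 15549 of 16987 in HLs. The nearest upstream site was also common to both, at 45.1 kb, with a fold of 3.53 in FLs (q = 0.186) and 6.98 in HLs (q = 5.47e-09). All folds and q-values of peaks are those of the authors' peak caller. Within 100 kb of the Sox9 start FLs had 4 peaks and HLs 3, and of these the HL peak at 45.1 kb upstream had a q of at most 0.05.

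Of the 63 FL peaks, 13 had a q of at most 0.05 (20.6%, 95% Wilson interval 12.5 to 32.2), against 17.4% of all FL peaks. In HLs 5 of 45 did (11.1%, 4.84 to 23.5), against 10.1% of all HL peaks. The share that passed was thus near that of the whole list in each limb. The median fold of the locus was 2.80 in FLs, where the whole list had 2.78, and 2.89 in HLs, where the whole list had 2.78. Folds ranged from 2.08 to 12.2 in FLs and from 2.01 to 6.98 in HLs. Most peaks of the locus were thus of low fold, as in the lists as a whole, and a small group of positions stood above them.

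**Figure D1:**
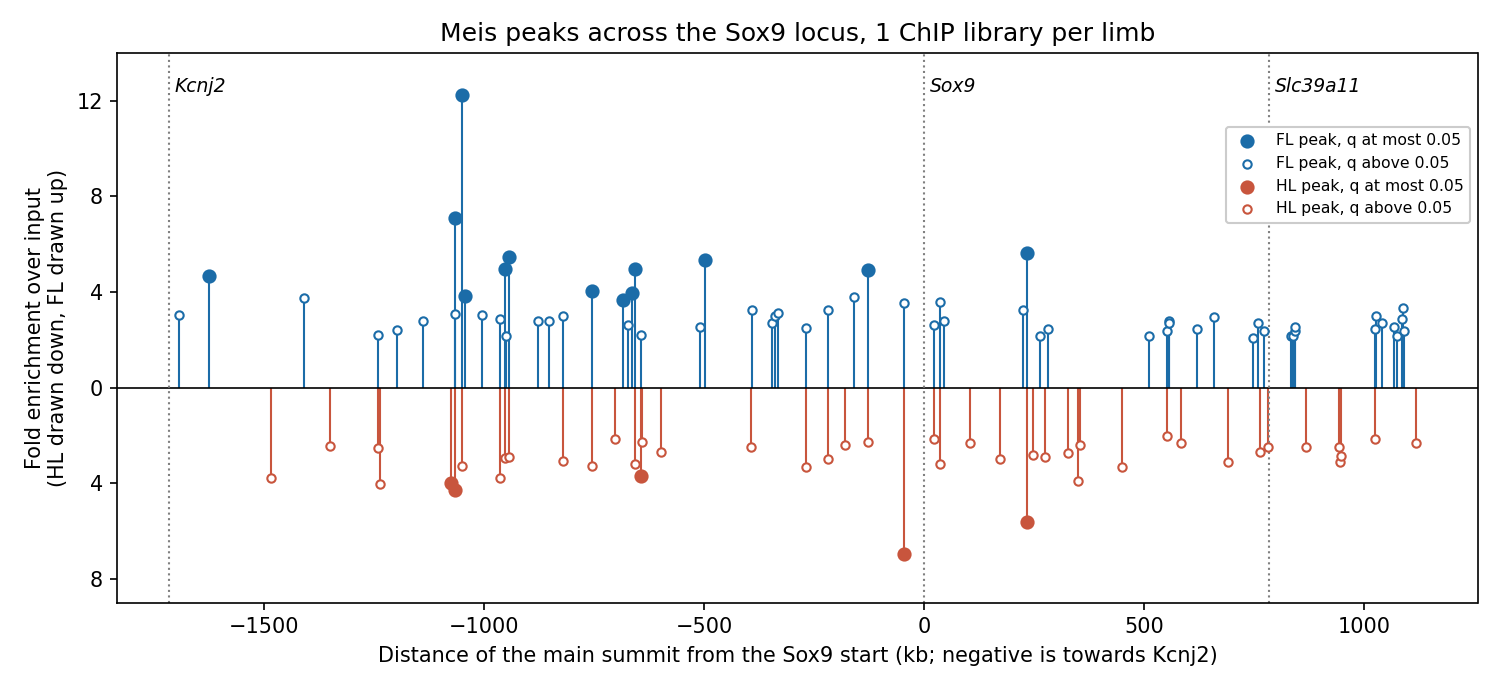
Fold enrichment over input of each peak of the Sox9 locus, drawn up for FLs and down for HLs on a linear scale, against the distance of its main summit from the Sox9 start in kb, with filled points for a q of at most 0.05 and dotted lines at gene starts. The FL peak with the highest fold, 12.2, stands 1.05 Mb upstream, and the HL peak with the highest fold, 6.98, stands 45.1 kb upstream.

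The FL peaks with the highest folds lay far upstream of Sox9. The first spanned 111593412 to 111593923, 1.05 Mb upstream, and had a fold of 12.2 (q = 2.4e-24), rank 71 of the 21338 FL peaks. The HL list held a peak at the same place, from 111593483 to 111593690, with a fold of 3.27 (q = 1), rank 3895 of 16987. The main summits of the 2 limbs were 3 bp apart, and the FL fold was 3.75 times the HL fold, a log2 ratio of 1.91. The FL peak had a weaker second summit with a fold of 2.86. At this position the limbs thus shared the place of the peak and differed in its height. The second FL peak lay 1.07 Mb upstream, from 111576614 to 111577165, with 2 summits of fold 6.04 and 7.08 (q = 2.86e-09 for the higher). Its HL partner, from 111576820 to 111577136, had a fold of 4.30 (q = 0.00635). It was the single site of the upstream desert with a q of at most 0.05 in both limbs.

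The third FL peak lay on the other side of the gene, 232 kb downstream, and was of equal height in the limbs. It spanned 112875627 to 112876132 in FLs, with a fold of 5.63 (q = 5.53e-08), and 112875659 to 112876179 in HLs, also with a fold of 5.63 (q = 1.41e-06). Each limb had a second summit there, with a fold of 3.07 (q = 0.0291) in FLs and 4.05 (q = 0.0209) in HLs. No other site downstream of Sox9 reached a q of at most 0.05 in either limb.

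The other FL peaks with a q of at most 0.05 were spread along the upstream desert. The peak farthest from Sox9, at 111017184 to 111017356, had a fold of 4.67 (q = 0.0053) and lay 89.8 kb from the Kcnj2 start, with no HL peak over it. It was the one FL peak within 100 kb of Kcnj2 that passed. Near the 1.05-Mb site, a peak at 111599861 to 111600134 reached a fold of 3.84 (q = 0.00488) without an HL partner. A pair of sites lay about 0.95 Mb upstream. The one at 111690106 to 111690287 had folds of 4.98 (q = 0.000321) in FLs and 2.97 (q = 1) in HLs. Its neighbour at 111700416 to 111700614 had folds of 5.44 (q = 2.85e-05) and 2.89 (q = 1). Both were thus present in HLs at a height near the median of the HL list.

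Closer to Sox9, 4 FL peaks with a q of at most 0.05 stood between 0.754 and 0.657 Mb upstream. The peak at 111889230 to 111889670 had a fold of 4.03 (q = 0.000121) in FLs and 3.30 (q = 0.456) in HLs. The peak at 111986671 to 111986868 had a fold of 4.98 (q = 0.000321) in FLs and 3.21 (q = 0.586) in HLs. The peaks at 111958124 to 111958242, with a fold of 3.67 (q = 0.044), and at 111978590 to 111978798, with a fold of 3.95 (q = 0.00488), had no HL partner. Of these 4 sites, HLs thus held the ones with the higher FL folds. Then came a peak at 112144294 to 112144487, 499 kb upstream, with a fold of 5.36 (q = 7.53e-05) and without an HL partner. The last, at 112514959 to 112515279, was the FL peak with a q of at most 0.05 nearest to Sox9, 128 kb upstream, with a fold of 4.93 (q = 0.000639) in FLs and 2.29 (q = 1) in HLs.

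In HLs the highest fold of the locus was at the site nearest upstream of Sox9. The HL peak at 112598315 to 112598475 had a fold of 6.98, rank 238 of 16987, and the FL peak over it, at 112598287 to 112598521, had a fold of 3.53, rank 4546 of 21338. The HL fold was 1.98 times the FL fold, a log2 ratio of FL to HL of -0.99. This was the reverse of the site 1.05 Mb upstream, where the FL peak was the higher. A further HL peak with a q of at most 0.05 lay 0.645 Mb upstream, at 111998870 to 111999252, with a fold of 3.72 (q = 0.00458), over an FL peak with a fold of 2.20 (q = 1). The remaining one, 1.08 Mb upstream at 111568306 to 111568471, reached a fold of 3.98 (q = 0.0475) without an FL partner. The 5 highest HL folds also included a peak at 111407708 to 111407837, 1.24 Mb upstream, with a fold of 4.03 (q = 0.0806), which had no FL partner.

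Overlap by at least 1 bp joined 18 FL peaks with 18 HL peaks. These were 28.6% of the FL peaks (18.9 to 40.7), against 22.6% of all FL peaks, and 40% of the HL peaks (27.0 to 54.5), against 29.0% of all HL peaks. The whole-list share lay inside the interval in both limbs. Among peaks with a q of at most 0.05, 8 of 13 FL peaks (61.5%) had an HL partner, against 67.0% in the whole list, and 4 of 5 HL peaks (80.0%) had an FL partner, against 89.3%. Among the peaks above that q, the overlap was 10 of 50 in FLs (20%, against 13.2%) and 14 of 40 in HLs (35.0%, against 22.2%). Overlapping peaks were the higher ones, with a median fold of 3.56 in FLs against 2.78 for FL peaks with no partner. In HLs the medians were 3.20 and 2.68. The whole lists had the same order, with 3.77 and 2.70 in FLs and 3.29 and 2.66 in HLs. They were also wider, with a median of 223.5 bp against 163 bp in FLs and 170 bp against 118 bp in HLs, where the whole locus had 176 and 141 bp.

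**Figure D2:**
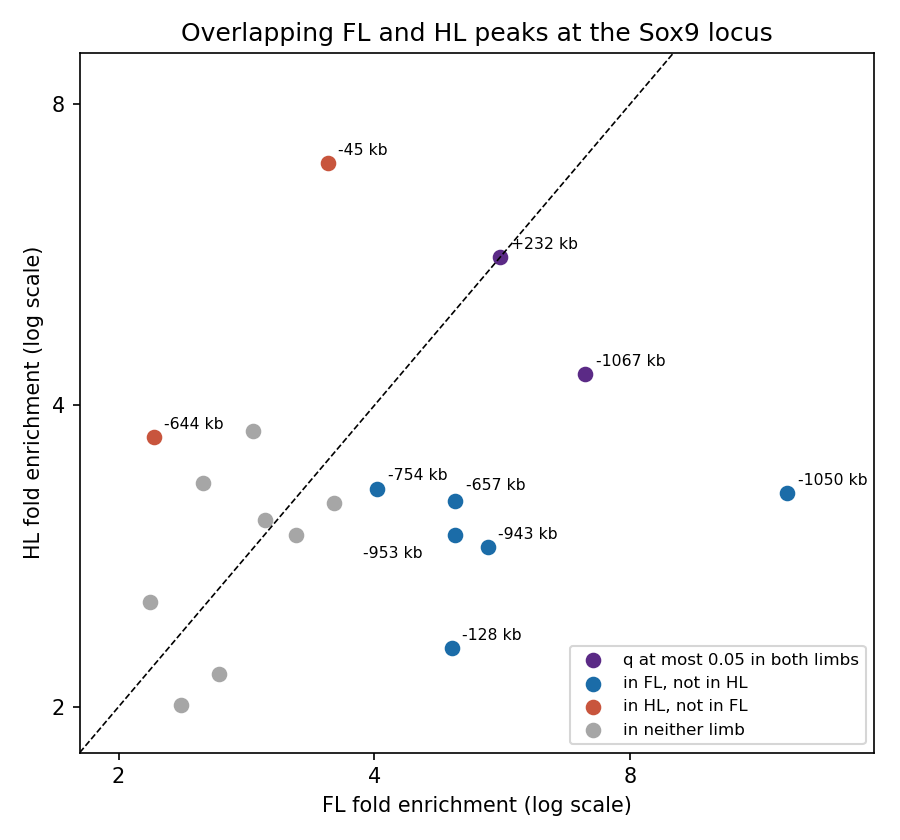
FL fold against HL fold (both on log scales) for the 18 overlapping pairs of the Sox9 locus, each point 1 pair coloured by the limb in which its q was at most 0.05, with distances from the Sox9 start beside those pairs and a dashed line at equal folds. The pair 1.05 Mb upstream lies far to the FL side (12.2 against 3.27), the pair 45.1 kb upstream to the HL side (3.53 against 6.98), and the pair 232 kb downstream on the line (5.63 in both).

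Over the 18 pairs the log2 ratio of FL to HL fold had a median of 0.20 (order-statistic interval -0.22 to 0.72) and ran from -0.99 to 1.91. The FL fold was the higher in 11 pairs (61.1%), against 62.1% of the 4813 pairs of the whole lists, and the HL fold in 7. The whole lists had a median of 0.17 (0.15 to 0.19), with the 5th and 95th percentiles at -0.71 and 1.14. Most pairs of the locus thus lay in the ordinary range of FL to HL ratios. Both ends lay outside those percentiles. Of all pairs, the site 1.05 Mb upstream included, 14 had a log2 ratio at least as high as its own, and 96 had one as low as that of the site 45.1 kb upstream or lower. Pairs with a q of at most 0.05 in both limbs numbered 2, those with it in FLs alone 6, in HLs alone 2 and in neither 8. Since the 2 lists differ in how many of their peaks pass that q, passing in one limb alone does not show that the limbs differ.

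The positions of the paired summits were close. Nearest summits were 1 to 118 bp apart, with a median of 27 bp, and in 17 of the 18 pairs they were at most 100 bp apart. At the site 0.645 Mb upstream the main summits were 178 bp apart, and the weaker HL summit lay 24 bp from the FL one. Over all pairs the median was also 27 bp, and 91.8% were at most 100 bp apart.

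**Figure D3:**
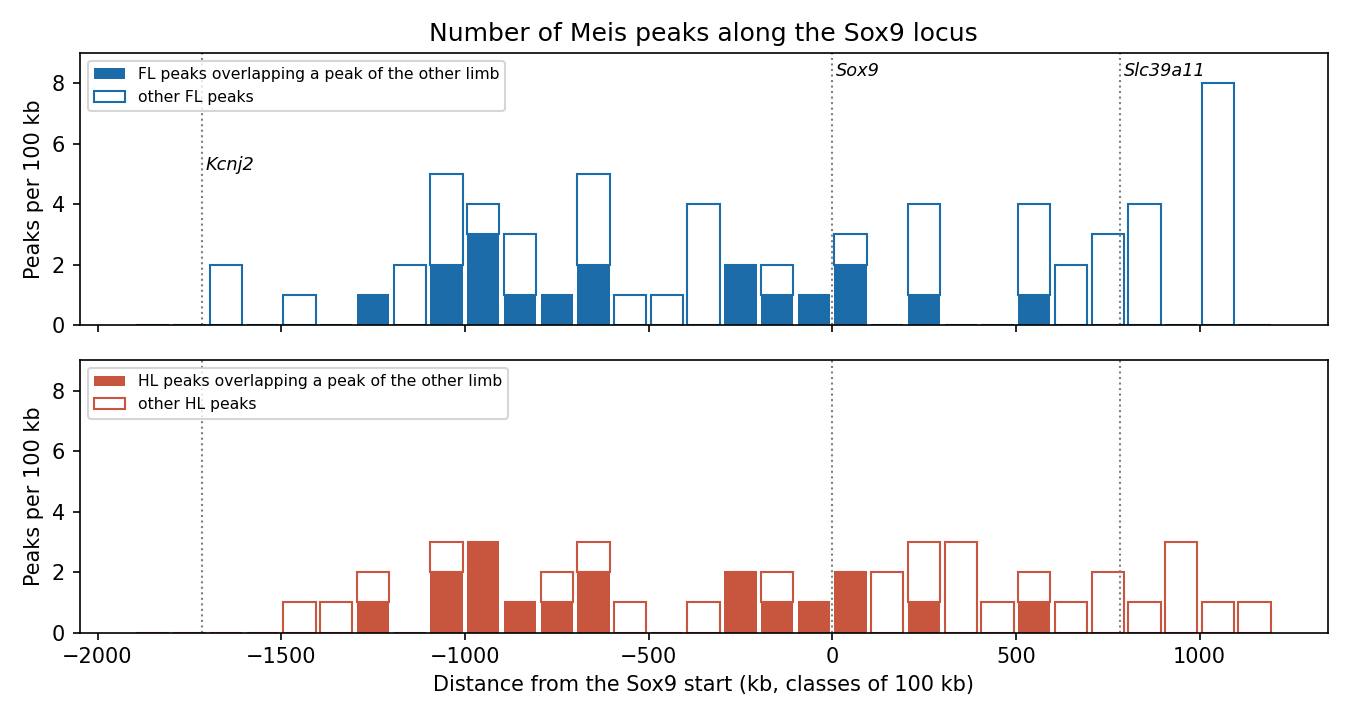
Number of peaks in each 100-kb step along the Sox9 locus against distance from the Sox9 start in kb, FLs above and HLs below, with filled bars for peaks that overlap a peak of the other limb, open bars for the others and dotted lines at gene starts. Filled bars run from 1.24 Mb upstream to 552 kb downstream, and beyond the Slc39a11 start all 12 FL and 6 HL peaks are in open bars.

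Along the locus, peaks with a q of at most 0.05 stood almost all between Kcnj2 and Sox9. That interval held 35 FL peaks, 12 of which passed (34.3%, 20.8 to 50.8), against 17.4% of all FL peaks. It held 23 HL peaks, 4 of which passed (17.4%, 6.98 to 37.1), against 10.1% of all HL peaks. The interval from Sox9 to Slc39a11 held 16 peaks in each limb, with 1 that passed (6.25%, 1.11 to 28.3), the site 232 kb downstream. Beyond the Slc39a11 start lay 12 FL and 6 HL peaks, and 0 of them passed, with intervals of 0 to 24.2% and 0 to 39.0%. Apart from the FL peaks between Kcnj2 and Sox9, these intervals held the whole-list shares, so the low counts downstream cannot be told from the background. The folds beyond the Slc39a11 start ran from 2.17 to 3.35 in FLs and from 2.17 to 3.13 in HLs. Before the Kcnj2 start the locus held none. By length the FL peaks were as dense between Kcnj2 and Sox9 as between Sox9 and Slc39a11 (20.4 per Mb in each), and denser beyond (32.2 per Mb). In HLs the densities were 13.4, 20.4 and 16.1 per Mb. The stretch with the most peaks per length was thus in neither limb the one with the most peaks of a q of at most 0.05.

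The overlap between limbs was counted along the same intervals, against whole-list shares of 22.6% in FLs and 29.0% in HLs. Of the peaks between Kcnj2 and Sox9, 14 of 35 in FLs (40%, 25.6 to 56.4) and 14 of 23 in HLs (60.9%, 40.8 to 77.8) had a partner. Between Sox9 and Slc39a11 it was 4 of 16 (25.0%, 10.2 to 49.5) in each limb. Beyond the Slc39a11 start it was 0 of 12 in FLs, an interval of 0 to 24.2%, and 0 of 6 in HLs, 0 to 39.0%. The whole-list share lay below the interval between Kcnj2 and Sox9 in both limbs and inside the other intervals. These are the same 14 pairs seen from each limb, so the limbs do not give separate results. The FL peaks there also passed the q of 0.05 more often (34.3%, against 17.4% of all FL peaks). In the whole FL list, peaks that passed overlapped more (67.0%, against 13.2% of the others), and the shares were not adjusted for this. The interval from Sox9 to Slc39a11 overlapped that between Kcnj2 and Sox9 in each limb. The common sites ran from 1.24 Mb upstream to 552 kb downstream. A stretch of 500 kb from 1.1 to 0.6 Mb upstream, chosen after the values were seen, held 18 FL peaks, 9 of them with a q of at most 0.05 (whole list 17.4%), and 12 HL peaks, 3 of them with such a q (whole list 10.1%). In each limb 9 of its peaks had a partner (whole lists 22.6% and 29.0%), and the median fold was 3.38 in FLs and 3.24 in HLs.

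Neighbouring peaks were a median of 26.5 kb apart in FLs and 52.1 kb in HLs. The longest stretch without an FL peak measured 230 kb and lay downstream, and the longest without an HL peak measured 204 kb and lay upstream, between 598 and 394 kb from Sox9. Peaks covered 13234 bp of the locus in FLs and 7353 bp in HLs. More than 1 summit was found in 5 FL peaks (7.94%, against 6.14% of all FL peaks) and in 2 HL peaks (4.44%, against 4.15%). A p of at most 0.0005 was reached by 21 peaks in each limb, 33.3% in FLs, against 31.7% in the whole list, and 46.7% in HLs, against 37.0%. That is the cutoff the study used for limb-specific peaks.

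Set beside the rest of chromosome 11, the locus held more peaks per length, 21 against 12.7 per Mb in FLs and 15 against 11.6 in HLs. Peaks with a q of at most 0.05 numbered 4.33 per Mb in FLs, against 1.58, and 1.67 in HLs, against 0.808. Tiles of the same length were also counted, 830 for FLs and 815 for HLs, so the limbs did not have the same set of tiles. Of the 830, 55 held more FL peaks than the 63 of the locus, and of the 815, 85 held more HL peaks than its 45. For peaks with a q of at most 0.05, 32 tiles held more than the 13 FL peaks, where the median tile had 3.5, and 55 held more than the 5 HL peaks, where the median tile had 1. The locus was therefore in the upper part of the tiles in both limbs but not at their top. Chromosome lengths were taken from the highest peak end on each chromosome.

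Near the 3 genes around Sox9 whose starts were placed, few peaks had a q of at most 0.05. Kcnj2 had FL peaks at 22.9 kb (fold 3.02, q = 1) and at 89.8 kb, and its nearest HL peak was 232 kb away. The nearest peaks to Slc39a11 were at 11.6 kb in FLs (fold 2.35) and 3.68 kb in HLs (fold 2.49), and none of the 7 FL and 4 HL peaks within 100 kb reached a q of 0.05. Over the whole lists 17.4% of FL and 10.1% of HL peaks did, and counts this small do not stand apart from those shares. Gm11678 had an FL peak at 4.05 kb (fold 2.70) and an HL peak at 43.4 kb (fold 2.49). In FLs the nearest peak with a q of at most 0.05 was thus closer to the Kcnj2 start (89.8 kb) than to that of Sox9 (128 kb).

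What lies at each site was read from the GRCm38 annotation by distance from the Sox9 start alone, without converting positions. It thus holds as far as the 2 builds have the same spacing there. Equal spacing was seen for the start of Kcnj2 upstream, and not for that of Slc39a11 downstream. At that distance 35 of the 63 FL peaks, 11 of the 13 with a q of at most 0.05 among them, fell in no annotated gene. In HLs 30 of 45 did, with 4 of the 5. The sites 1.07 and 1.05 Mb upstream and 232 kb downstream were among those in no gene. The pair 45.1 kb upstream fell within BC006965, a noncoding transcript on the minus strand that starts near Sox9. The FL peaks 0.665 and 0.657 Mb upstream fell within the long noncoding RNA gene Gm11680. Exons were met by 4 FL and 3 HL peaks, none with a q of at most 0.05, too few to set apart from the whole-list shares of 17.4% and 10.1%. Within Slc39a11, which runs from 463 to 868 kb downstream in GRCm38, fell 13 FL and 6 HL peaks. Their folds were 2.08 to 2.96 in FLs and 2.01 to 3.12 in HLs. Some of them lay past the mm9 start at 784 kb, so they were also counted above as beyond that start. Slc39a11 was thus the gene with the most peaks, all of low fold. It is also the longest gene of the locus, and the count was not set against length.

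**Figure D4:**
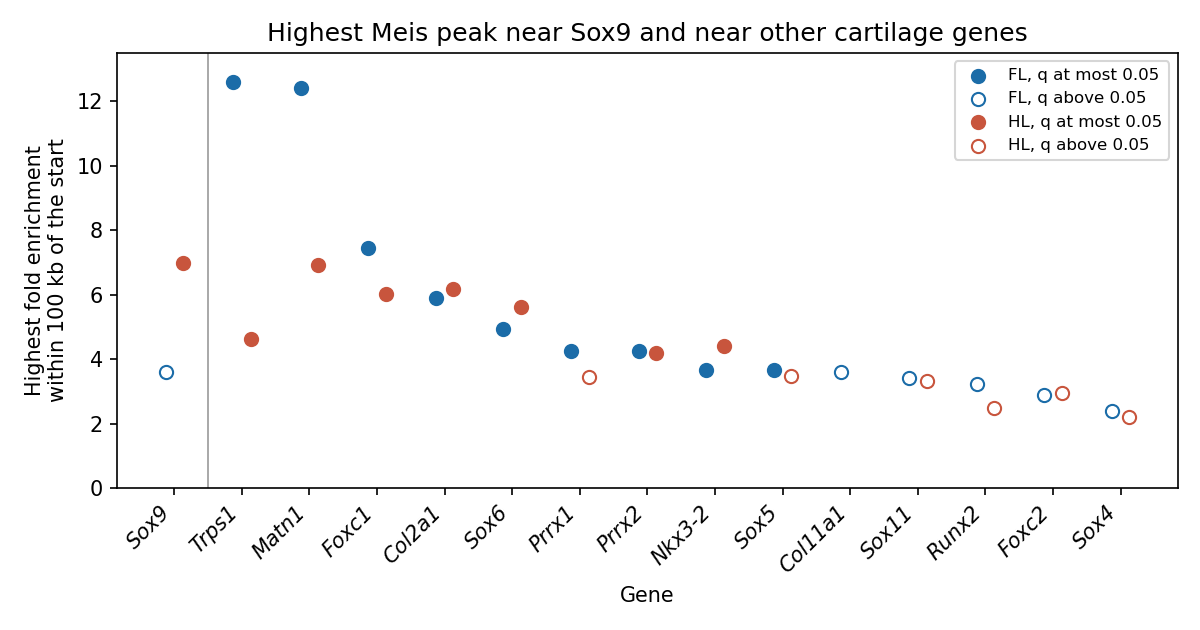
Highest fold enrichment over input of a FL and of a HL peak within 100 kb of the start of Sox9 and of 14 other genes of cartilage formation, with filled points for a q of at most 0.05, open points for a higher q and no point where a limb had no peak. Trps1 and Matn1 have the highest FL folds (12.6 and 12.4), and Sox9 has 3.59 in FLs and 6.98 in HLs.

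Other genes of the cartilage programme were set beside Sox9. Of a list of 28, 14 had a start that could be placed in mm9, through a table that names genes near sites common to both limbs, so that these genes have a peak nearby is not independent of their choice. Within 100 kb of the start, 14 of 14 had an FL peak, against 85.8% of all 2024 genes placed, and 13 had an HL peak (92.9%, against 80.8%). A peak with a q of at most 0.05 lay there for 9 in FLs (64.3%, against 47.2%) and for 7 in HLs (50%, against 28.6%). With 14 genes these counts are a description and say nothing particular of cartilage genes. Sox9 itself had no such peak in FLs and 1 in HLs.

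The FL folds of 2 genes of the list were as high as that of the desert site 1.05 Mb from Sox9. Trps1, a zinc-finger repressor of chondrocyte differentiation, had folds of 12.6 (q = 8.88e-25) in FLs and 4.64 (q = 0.00406) in HLs at 35.5 kb upstream of its start. Matn1, which encodes the cartilage matrix protein matrilin-1, had 12.4 (q = 1.65e-23) at 11.2 kb upstream in FLs and 6.93 (q = 1.24e-08) in HLs. Both had their higher fold in FLs, like that desert site. All were picked for a high FL fold, which favours this order, and 62.1% of all overlapping pairs had it. Foxc1, a forkhead factor of skeletal development, had 7.45 (q = 2.46e-11) in FLs and 6.01 (q = 4.75e-06) in HLs at 95.7 kb upstream. Col2a1, the type II collagen gene that Sox9 activates in cartilage, had 5.89 (q = 1.62e-05) in FLs and 6.19 (q = 9.72e-08) in HLs at 17.4 kb upstream. Sox6, a partner of Sox9 in chondrocytes, had 4.95 (q = 0.00029) in FLs and 5.63 (q = 1.51e-05) in HLs at 10.8 kb downstream of its start. Within 100 kb Sox9 had its highest FL fold, 3.59 (q = 0.499), at 36.3 kb downstream, below those of these 5 genes, and its HL fold of 6.98 was above those of these 5 genes. The 5 genes were the ones with the highest FL folds of the list.

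At the limits of the locus, none of the nearest summits inside or outside had a q of at most 0.05. The first FL summit inside lay at 110950364 (fold 3.02, q = 1) and the nearest outside at 110762396 (2.70, q = 1). At the far limit the FL summits lay at 113733168 inside (2.35, q = 1) and 113812733 outside (2.53, q = 1). In HLs they lay at 111159216 (3.80, q = 0.386) inside and 110506563 (2.88, q = 1) outside on the Kcnj2 side. On the other side they lay at 113759926 inside (2.32, q = 1) and 113811638 outside (2.56, q = 1).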

How the data were processed

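Meis ChIP-seq peak lists of E10.5 FL and HL buds (1 library per limb) were analysed, and the input libraries entered through the authors' peak calling. Per the labels, reads were processed with CASAVA 1.8.2, cutadapt 1.3, BWA and SAMtools, and the authors called peaks with MACS2 on mm9. Both lists reach p-values near 0.022 (highest 0.022 in FLs, 0.0217 in HLs), so they include weak peaks. The study used 0.022 to find peaks shared by the limbs and 0.0005 to find peaks specific to 1 limb. The peak sets it reports are smaller than these lists, so a peak counted here need not be in them. The deposited fold enrichment is the ratio of ChIP signal to local background. The −log10 p and −log10 q columns were deposited as the authors' peak caller wrote them, and were turned back into p-values and q-values. Multiplying −log10 p by 10 and dropping the decimals gives the authors' score column, apart from 14 HL summits.

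Positions of peaks and summits are printed counted from 1, a shift that was not applied to the derived gene starts. Summits that share both ends were merged into 1 peak, which took their highest fold and lowest p and q. Where an FL peak overlapped HL peaks by at least 1 bp, it was paired with the one of the highest fold. Shares have 95% Wilson intervals, which, like the order-statistic intervals of medians, cover counting error only. No test was made, since each limb had 1 library. Starts of genes in mm9 were derived from FL summits and the first 1994 rows of a table of peak-to-gene distances in the study's supplement, used as annotation alone. A start was kept where all distances gave it within 2 bp, which placed 2024 genes. GRCm38 genes (GENCODE M21) were set beside peaks by distance from the Sox9 start. Peak sequences are not printed, because no mm9 sequence was used here. Overlaps and starts were tested on simulated data. Software was scipy 1.17.1, pandas 2.3.3, numpy 2.4.6 and matplotlib 3.10.9 under Python 3.11.15.

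Sites named are those with a q of at most 0.05 in either limb, the 5 highest folds per limb, the nearest summit on each side of the Sox9 start, and those at the limits of the locus. Of the cartilage list the 5 genes with the highest FL fold are named. The locus, the list and the rules were chosen with earlier results of these data known. Alternatives differed in the cutoff on p, q or fold, in how overlap and summits were counted, and in the window around a gene.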

Additional observations from a re-analysis of the deposited data

How the results depend on the processing

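Of 34 alternative values, 16 stayed close to the reported one, 18 moved and 0 changed direction. Counts, shares, densities and distances cannot change direction, so only the median log2 ratio could have done so. A p of at most 0.0005 left 21 FL and 21 HL peaks. A q of at most 0.05 left 13 FL and 5 HL peaks (4.33 and 1.67 per Mb), of which 12 and 4 lay on the Kcnj2 side of Sox9 and 1 and 1 on the other, where all peaks gave 35 and 23 on the Kcnj2 side and 28 and 22 on the other. At that q the nearest peak to Sox9 moved from 22.0 to 128 kb in FLs and from 22.0 to 45.1 kb in HLs, the share with a partner in the other limb's whole list rose to 61.5% in FLs and 80.0% in HLs, and 9 and 7 cartilage genes kept a peak within 100 kb. A fold of at least 5 beside that q left 5 FL and 2 HL peaks. A reciprocal overlap of 50% gave shares of 22.2% and 31.1%, summits at most 100 bp apart 27.0% and 37.8%, and a p of at most 0.0005 in both lists 38.1% and 38.1%. The median log2 ratio was 0.36 over the 2 pairs with a q of at most 0.05 in both limbs and 0.24 over pairs with summits at most 100 bp apart.

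No paired analysis was possible because each limb had 1 library, and there was no replicate to leave out. Peaks with a q above 0.05 make up most of both lists, and which of them a second library would give was not tested. Library and limb cannot be told apart, so a difference in fold or q between FLs and HLs is one between 2 libraries.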

Other observations

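Low-fold FL peaks gathered at the far end of the locus. At distances that fall within Sdk2 in GRCm38, a gene for a cell adhesion protein of the nervous system, stood 8 FL peaks from 1.02 to 1.09 Mb downstream of Sox9, with folds of 2.17 to 3.35, and 2 HL peaks with folds of 2.17 and 2.32. Of the 8, 0 overlapped an HL peak, where 13.2% of all FL peaks with a q above 0.05 did, and 0 reached a q of 0.05, where 17.4% of all FL peaks did, so neither count stands apart from the whole list.

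Many weak peaks had the same p, with 9 FL peaks of the locus at a p of 0.0169 and 4 HL peaks at 0.00453.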
